A study of Saccharomyces cerevisiae with 12 samples.

Results

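The response of yeast cells that lack Sgs1 to tangeretin was measured on 6 microarrays, 3 of tangeretin-treated and 3 of control sgs1Δ cells, out of 12 arrays in the series. The arrays were chosen by their labels: tangeretin repeats 1 to 3 and control repeats 1 to 3 of the sgs1 deletion. Total RNA had been turned into cDNA and hybridised in 1 colour, and 6269 genes were measured. Treated cells had 30 µM tangeretin in medium without tryptophan for 4 h at 30 °C, with its solvent dimethyl sulfoxide (DMSO) at 0.2%. Control sgs1Δ cells had the same medium, time and temperature, and the same 0.2% of DMSO. Both groups are the strain YCL1098. Its genotype carries MATα and the marker alleles his3Δ1, leu2Δ0, met15Δ0 and ura3Δ0, with trp1 replaced by HPH and SGS1 replaced by kanMX4, plus the plasmid pRS414-GAL1-HO-TRP1. The plasmid puts the HO endonuclease gene behind the galactose promoter GAL1, and these cultures are not labelled as grown in galactose. The comparison strain, WT (YCL1071), has the same alleles and plasmid but an intact SGS1, and was treated and sampled in the same way. One strain stands for the deletion, so its effect cannot be told apart from that of any other change the strain carries.

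Sgs1 is the RecQ-family DNA helicase of budding yeast, the relative of the human BLM and WRN helicases. With the topoisomerase Top3 and its partner Rmi1 it takes apart recombination intermediates and helps stalled replication forks, so cells without it recombine more and lean on backup nucleases. Tangeretin is a polymethoxylated flavone of citrus peel. Yeast meets small foreign molecules with efflux pumps, and it draws its methionine and cysteine from sulfate through a pathway that is switched on together by the activator Met4 and its cofactors Cbf1 and Met28.

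The deletion was visible on the arrays. The SGS1 probe read 4, 5 and 7 raw intensity units on the tangeretin arrays, against 5, 6 and 5 on the control arrays, and it was detected on 0 of these 6 arrays but on 6 of 6 WT arrays. URA3, which the genotype lacks, read at most 15 units. LEU2 read 35, 36 and 42 units with tangeretin and 31, 28 and 37 in controls, which the scanner flag still counted as detected. HIS3 read 26110 to 41022 units over the 6 arrays, although the genotype lists a his3 allele. Both MATα-type and MATa-type markers were present. The 4 α-cell markers MF(ALPHA)1, MF(ALPHA)2, SAG1 and STE3 were detected on all 6 arrays, and so were all 7 a-cell markers MFA1, MFA2, STE2, STE6, BAR1, AGA2 and ASG7, which a pure culture of α cells is known to keep silent. The receptor gene STE2, for one, read 3654, 3276 and 4076 units with tangeretin and 2113, 2735 and 1804 units in controls. The lowest reading of the 11 markers on these arrays was 180 units, against at most 15 units for SGS1 and URA3, so transcripts of both mating types were measured in cells labelled MATα.

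The control arrays were less alike than the tangeretin arrays. The 3 tangeretin arrays correlated with each other at 0.9961 to 0.9970 over all genes. Control arrays 1 and 3 correlated at 0.9960, while control array 2 correlated at only 0.9924 to 0.9941 with these and at 0.9938 to 0.9962 with the tangeretin arrays, against 0.9869 to 0.9945 for the tangeretin arrays with control arrays 1 and 3. Each tangeretin array was also brighter, with a median raw intensity of 1367.5, 1530 and 1467 units, against 964.5, 1344 and 928 units on control arrays 1, 2 and 3. Control array 2 was thus the control closest to the treated arrays in brightness, and in pattern the closest to tangeretin arrays 1 and 3. Tangeretin array 2 correlated at 0.9945 with control array 3 and at 0.9938 with control array 2. Several counts below are also given without control array 2. No label ties the 3 arrays of a group to separate cultures, and the file headers give them 1 sample number, so p-values may reflect technical spread alone.

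Few transcripts of sgs1Δ cells were called with tangeretin in the main fit, and most called changes were under 2-fold. The count of calls moved widely between fits, as given below, so it does not measure the extent of the response. At an adjusted p under 0.05 in limma, 91 of 6269 genes were called (1.45%), 47 higher with tangeretin (0.75%) and 44 lower (0.702%). The 2 called genes that changed by at least 2-fold, YGL072C and ARG3, were both higher. Changes are given after 50 units were added to each reading, which shrinks those of dim probes. The median called rise was 0.60 and the median called fall was -0.50 on the log2 scale, next to a median of -0.02 and a standard deviation of 0.22 over all genes. In all 91 called genes the tangeretin and control arrays did not overlap. With 3 arrays per group the threshold for a call favours this, so it is no added support. Over all genes, the 3 tangeretin arrays lay above the 3 control arrays in 582 (9.28%) and below them in 996 (15.9%), so that a clean separation was more often downwards. At an unadjusted p under 0.05 there were 612 genes higher and 753 lower.

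**Figure D1:**
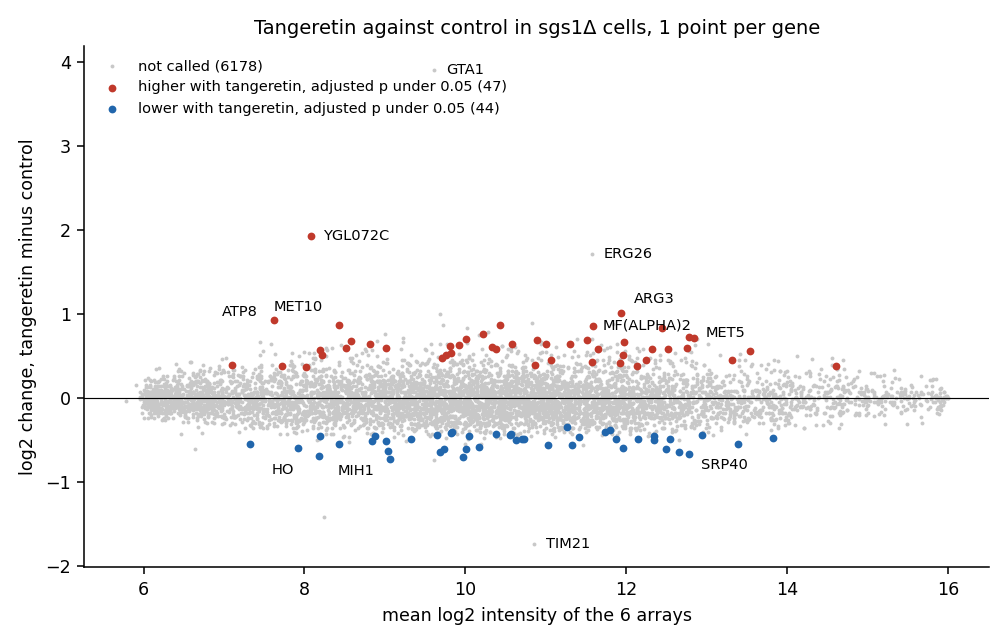
Each point is 1 gene, with its mean log2 intensity over the 6 sgs1Δ arrays on the x axis and its log2 change, tangeretin minus control, on the y axis; red and blue points are the 47 genes called higher and the 44 called lower. Called genes lie at all signal levels and mostly within 1 log2 unit of 0, and GTA1, ERG26 and TIM21 lie further out without being called.

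How far the count of calls rests on single arrays was examined by leaving each out. Without control array 2 the calls grew to 430 of 6269 genes higher and 316 lower, and all 91 genes were still among them. These counts are the background for each list count given without control array 2. That array was singled out as the control closest to the treated arrays in brightness and in most called genes. Leaving it out thus favours larger differences, and counts without it are no added support for a change. Leaving out 1 of the other 5 sgs1Δ arrays left 10 to 23 higher and 4 to 13 lower, and leaving out 1 of the 6 WT arrays, which share the estimate of the spread, gave 30 to 105 higher and 23 to 96 lower. In the called genes, control array 2 was the control nearest to the tangeretin arrays in 66 of 91, and in 39 of the 44 genes that fell. With each array's brightness in the model, 15 genes were called higher and 2 lower. All 91 genes kept their direction there, and 15 of them kept the call. The lists of arginine synthesis, multidrug transport, G1 to S and ribosome assembly genes had 0 calls in that fit. The 13 genes called whichever of the 12 arrays was left out were YGL072C, ATP8, MET10, MF(ALPHA)2, SAG1, STR3, MET5, MET28, ENB1 and DAK1 among the rises and MIH1, CTR1 and CWP1 among the falls.

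Most genes that take up sulfate and reduce it to sulfide rose. Of the 10 measured, 7 were called higher (0.75% over all genes) and 0 lower. In 8 all tangeretin arrays lay above all control arrays (9.28% over all genes), and the median log2 change was 0.52, against -0.02 over all genes. In the same list 9 genes were higher at an unadjusted p under 0.05. The median was 0.56 without control array 2, with the same count of 7 calls, and 0.56 with brightness in the model, where 1 gene kept its call. In WT cells the median of the list was -0.02.

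**Figure D2:**
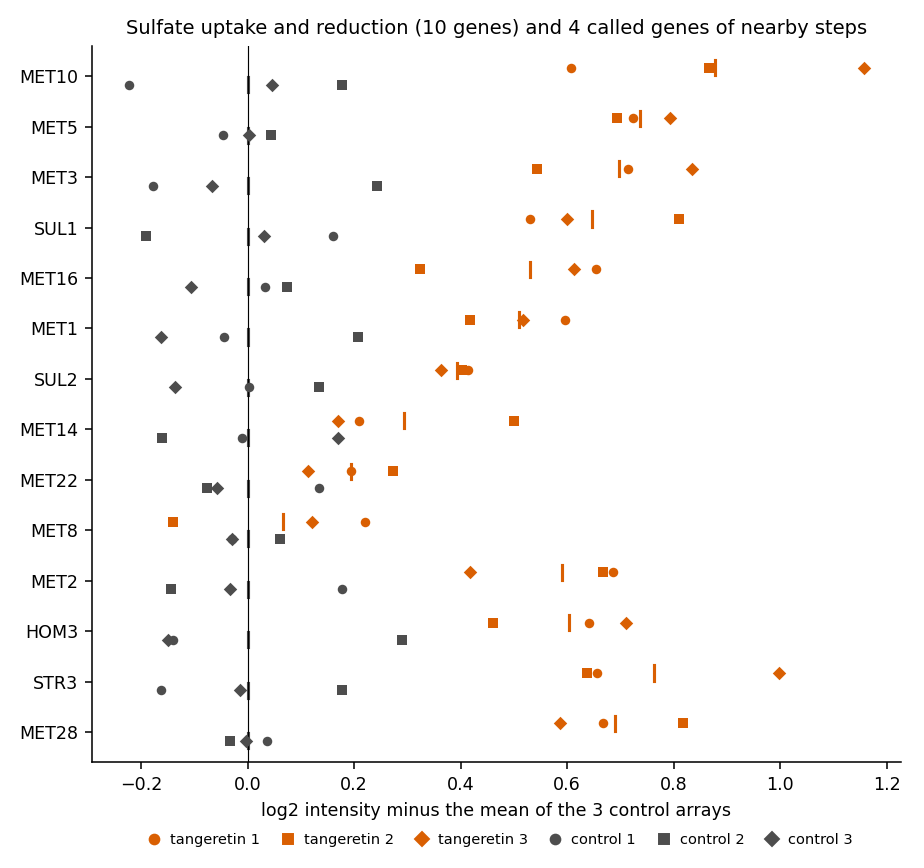
The x axis gives the log2 intensity of each array minus the mean of the 3 control arrays for the 10 genes of sulfate uptake and reduction and for MET2, HOM3, STR3 and MET28; orange points are tangeretin arrays, grey points control arrays, and vertical bars group means (n = 3 arrays each). Tangeretin and control points are apart in all genes drawn except MET8 and MET22, and control array 2 is the highest control in MET10, MET3 and HOM3, among others.

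By step of the pathway, the sulfate permease genes SUL1 and SUL2 both rose. SUL1 read 9.02, 9.30 and 9.09 log2 units with tangeretin and 8.65, 8.30 and 8.52 in controls, a change of 0.65 (SE 0.13, adjusted p = 0.0249). SUL2, a dim probe, read 7.32, 7.31 and 7.27 with tangeretin and 6.91, 7.04 and 6.77 in controls, a change of 0.40 (SE 0.09, adjusted p = 0.0436). The groups did not overlap for either permease.

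Sulfate is then activated and reduced. MET3, which encodes ATP sulfurylase, read 10.38, 10.21 and 10.50 with tangeretin and 9.49, 9.91 and 9.60 in controls, a change of 0.70 (SE 0.11, adjusted p = 0.00801). MET14, the next kinase, differed by 0.29 and was not called, and MET22, which clears a by-product of the pathway, was not called either. MET16, the reductase that makes sulfite, read 10.21, 9.88 and 10.17 with tangeretin and 9.59, 9.63 and 9.45 in controls (change 0.54, SE 0.10, adjusted p = 0.0203).

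Both subunits of sulfite reductase rose. MET5, its beta subunit, read 13.14, 13.11 and 13.21 with tangeretin and 12.37, 12.46 and 12.42 in controls, with arrays of a group within 0.10 log2 units of each other (change 0.73, SE 0.10, adjusted p = 0.00294). MET10, the alpha subunit, read 8.59, 8.85 and 9.14 with tangeretin and 7.76, 8.16 and 8.03 in controls, a wider spread and a change of 0.87 (SE 0.14, adjusted p = 0.0071). MET1, an enzyme of the siroheme cofactor that sulfite reductase needs, rose by 0.51 (SE 0.12, adjusted p = 0.0462), while MET8, another enzyme of that cofactor, differed by 0.07 and its groups overlapped.

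Downstream of sulfide, the list of 18 genes of methionine, cysteine and S-adenosylmethionine (SAM) metabolism had a median of 0.10. In it 3 were called higher (0.75% over all genes) and 0 lower. Without control array 2, 5 were called higher (430 of 6269 over all genes). The 3 were STR3, MET2 and HOM3. STR3, a cystathionine beta-lyase on the way from cysteine to methionine, read 10.50, 10.48 and 10.84 with tangeretin and 9.68, 10.02 and 9.83 in controls (change 0.76, SE 0.12, adjusted p = 0.0071). MET2, which makes the O-acetylhomoserine that accepts the sulfide, rose by 0.60 (SE 0.11, adjusted p = 0.0195). HOM3, aspartate kinase at the entry to methionine and threonine synthesis, also rose by 0.60 (SE 0.12, adjusted p = 0.0249). Methionine synthase MET6 differed by 0.16 and the SAM synthetase SAM2 by -0.09, neither of them called. MET17 encodes the enzyme that joins sulfide to O-acetylhomoserine, the one the met15 allele removes. Its probe read 37, 22 and 36 raw units with tangeretin and 8, 23 and 13 in controls. These readings were close to the floor of detection, and the groups overlapped. Both groups carry met15Δ0 and so lack this step, and the rises above cannot be read as a working route from sulfate to methionine.

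Of the 6 regulators of the pathway, MET28 alone was called (0.75% called higher over all genes). It read 11.84, 11.99 and 11.76 with tangeretin and 11.21, 11.14 and 11.17 in controls, so that its control arrays lay within 0.10 of each other (change 0.69, SE 0.10, adjusted p = 0.0071). The activator MET4 differed by 0.04, CBF1 by 0.07, the ubiquitin-ligase subunit MET30 by 0.15, and the DNA-binding proteins MET31 and MET32 by -0.19 and 0.11. None of the 6 transporters of methionine, cysteine and related compounds was called in limma, although 1 was higher at an unadjusted p under 0.05. The methionine permease MUP1 differed by 0.34, with all tangeretin arrays above all control arrays.

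Arginine synthesis was the other amino acid pathway with calls. Of 10 genes, 2 were called higher (0.75% over all genes) and 0 lower. In 6 all tangeretin arrays lay above the controls (9.28% over all genes), and the median was 0.37. ARG3, ornithine carbamoyltransferase, read 12.25, 12.66 and 12.44 with tangeretin and 11.10, 11.64 and 11.54 in controls, a 2.03-fold rise (log2 change 1.02, SE 0.24, adjusted p = 0.0484). ARG8, acetylornithine aminotransferase, read 10.76, 11 and 10.83 with tangeretin and 9.77, 9.97 and 10.23 in controls (change 0.87, SE 0.19, adjusted p = 0.0445). Both calls were near the threshold, and each held in 3 of the 12 fits that left out an array. Without control array 2, 5 of the 10 were called higher (430 of 6269 over all genes). With brightness in the model 0 of the 10 were called and the median was 0.29. In WT cells ARG3 differed by 0.67 and ARG8 by 0.46 without a call, and the list median there was 0.19.

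No gene in the lists for the synthesis of other amino acids was called. The lists for histidine and lysine (14 genes), aromatic amino acids (11) and branched-chain amino acids and threonine (12) had medians of 0.26, 0.23 and 0.21, and limma called 0 genes in each. At an unadjusted p under 0.05, 6, 6 and 4 of their members were higher and 0, 1 and 0 lower. The fit without control array 2 called 2, 4 and 1 of them higher, against 430 of 6269 over all genes. HIS7 differed by 0.64, ILV2 by 0.63 and ARO3 by 0.50, with adjusted p of 0.117, 0.102 and 0.0863. HIS1 sat at the scanner ceiling on all 6 arrays, so its change was not measurable. The transcript of GCN4, the activator of these pathways, which is itself controlled mainly by translation, read 15.22, 15.23 and 15.14 with tangeretin and 15.34, 15.13 and 15.21 in controls, with the groups overlapping. GCV3, a subunit of the glycine cleavage system, rose by 0.67 (SE 0.15, adjusted p = 0.0462), and IMD2, an IMP dehydrogenase of guanine nucleotide synthesis, rose by 0.51 (SE 0.12, adjusted p = 0.0462). A second IMD2 probe moved by 0.75, also upwards.

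**Figure D3:**
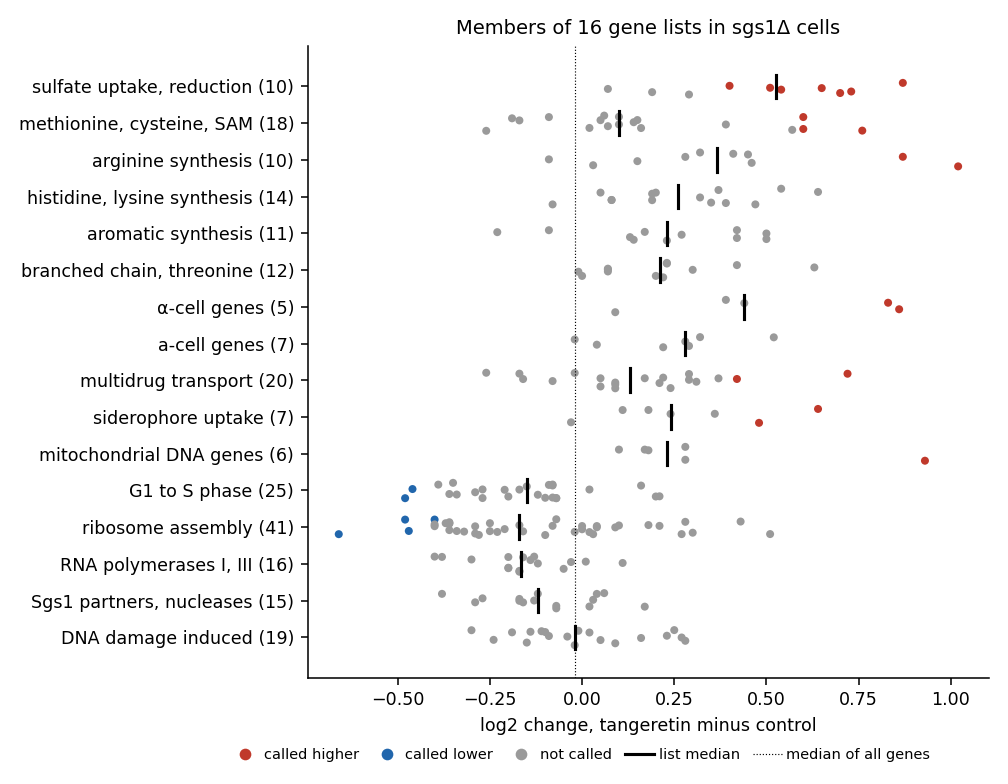
Each point is a gene of 1 of 16 lists, placed by its log2 change (tangeretin minus control) in sgs1Δ cells; red and blue points were called higher and lower, black bars are list medians and the dotted line is the median of all genes. The sulfate list lies furthest to the right with 7 red points, and the ribosome assembly and G1 to S lists lie to the left with 4 and 2 blue points.

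Of 20 multidrug transporter genes, 2 were called higher (0.75% over all genes) and 0 lower, and the median was 0.13. PDR5, the main drug efflux pump of the plasma membrane, read 13.33, 12.97 and 13.32 with tangeretin and 12.20, 12.71 and 12.53 in controls, a 1.65-fold rise (log2 change 0.72, SE 0.15, adjusted p = 0.0392). The groups did not overlap, and tangeretin array 2 was the lowest treated and control array 2 the highest control reading. PDR12, a pump for weak organic acids, read 12.17, 12.13 and 12.09 with tangeretin and 11.70, 11.70 and 11.73 in controls (change 0.42, SE 0.08, adjusted p = 0.0203). In WT cells PDR5 rose by 1.15 (adjusted p = 0.00267), and the difference between the strains, -0.43, did not pass the threshold (adjusted p = 0.349). SNQ2, another pump of the same family, differed by 0.29 and was not called. Of 11 regulators and other genes of this network, limma called 0, and 1 was higher at an unadjusted p under 0.05. YPL264C, a predicted membrane transporter, and YLR152C, both picked after their values were seen, rose by 0.62 and 0.65.

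Some genes of the mating system rose. Of 5 α-cell genes, 2 were called higher (0.75% over all genes) and 0 lower, with a median of 0.44. In 4 of the 5 the tangeretin arrays were all above controls (9.28% over all genes). MF(ALPHA)2, a gene for the alpha-factor pheromone, read 12.08, 12.01 and 11.98 with tangeretin and 11.17, 11.21 and 11.11 in controls, a 1.82-fold rise (log2 change 0.86, SE 0.09, adjusted p = 0.000999). SAG1, the alpha-agglutinin that lets mating cells stick together, read 12.92, 12.84 and 12.83 with tangeretin and 12.12, 12.10 and 11.88 in controls (change 0.83, SE 0.09, adjusted p = 0.000999). MF(ALPHA)1, the more active alpha-factor gene, differed by 0.39 and STE3, the a-factor receptor, by 0.44, each with groups apart but no call. The combined probe of HMLALPHA1 and MATALPHA1, the regulator of α-cell genes, differed by 0.09.

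The a-cell genes had a positive median but no call. Limma called 0 of 7, 4 were higher at an unadjusted p under 0.05, and the median was 0.28. AGA2 differed most, by 0.52 (adjusted p = 0.117). AGA1, the cell wall anchor of agglutinin, which both mating types can make, rose by 0.59 and was called (SE 0.13, adjusted p = 0.0445). AGA1 was the only call among the 28 pheromone pathway genes and targets (0.75% called higher over all genes), whose median was 0.02. Without control array 2, 5 were called higher and 1 lower (430 and 316 of 6269 over all genes). Summed over the 4 α-cell markers, the level was 15.26 to 15.38 log2 units with tangeretin and 14.73 to 14.83 in controls. Summed over the 7 a-cell markers it was 14 to 14.24 with tangeretin and 13.71 to 13.95 in controls. In WT cells the α-cell sum was lower, at 11.81 to 12.03 with tangeretin and 11.96 to 12.21 in controls, and the a-cell sum was 13.02 to 13.23 with tangeretin and 13.13 to 13.35 in controls. A change in the share of cells of a mating type and a change in RNA per cell cannot be told apart in these bulk samples.

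A few genes of metal uptake were called, in both directions. Of 7 siderophore genes, which bring in iron held by small chelators, 2 were called higher (0.75% over all genes) and the median was 0.24. ENB1, the enterobactin transporter, read 11.27, 11.27 and 11.43 with tangeretin and 10.61, 10.78 and 10.67 in controls (change 0.64, SE 0.10, adjusted p = 0.0071). FIT2, a cell wall mannoprotein that holds siderophore iron, rose by 0.48 (SE 0.09, adjusted p = 0.0203). FET3, the copper-dependent ferroxidase of the reductive route, rose by 0.38 (SE 0.09, adjusted p = 0.0468). It was 1 call among 21 genes of that route (0.75% called higher over all genes), whose median was -0.01. Against these, CTR1, the high-affinity copper transporter, read 9.47, 9.24 and 9.38 with tangeretin and 9.95, 10.13 and 9.93 in controls, a fall of 1.56-fold (change -0.64, SE 0.10, adjusted p = 0.0071). It was the only call among 9 copper genes (0.702% called lower over all genes), whose median was 0.01. FRE8, a member of the metal reductase family, also fell, by 0.59 on the log2 scale (SE 0.11, adjusted p = 0.0203).

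A transcript of mitochondrial DNA rose. ATP8, a subunit of the ATP synthase encoded by mitochondrial DNA, read 7.92, 8.19 and 8.16 with tangeretin and 7.03, 7.07 and 7.36 in controls, a 1.91-fold rise (log2 change 0.93, SE 0.13, adjusted p = 0.00489). ATP8 was the only call among 6 respiratory genes of that genome (0.75% called higher over all genes), which had a median of 0.23. In 5 of the 6 the tangeretin arrays were all above controls (9.28% over all genes). The other 5 genes differed by 0.10 to 0.28, and most of their probes were dim, as COB at 6.10 to 6.42 log2 units. Of the 12 subunits of the same enzyme encoded in the nucleus, limma called 0, 0 were higher and 2 lower at an unadjusted p under 0.05, and the median was -0.05.

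The largest called change was in YGL072C, a reading frame that the RefSeq R64 annotation does not list as a gene. It read 9.17, 8.94 and 9.05 with tangeretin and 7.28, 7.03 and 7.07 in controls, 3.81-fold higher (log2 change 1.93, SE 0.11, adjusted p = 6.01e-07). In raw units these were 723, 716 and 737 with tangeretin and 93, 98 and 79 in controls, a gap far wider than the spread within either group. The fold is smaller than these raw readings give, since it was taken after normalization and after 50 units were added. The genes on its sides, by systematic name, were not called. HSF1, the heat shock factor, differed by -0.20 and AFT1, the iron regulator, by -0.01. In WT cells YGL072C read 9.97, 9.86 and 10.1 with tangeretin and 10.27, 10.29 and 9.98 in controls. The rise in sgs1Δ cells thus began from a level far below that of WT cells and ended below it too. The WT change was -0.21, and the difference between the strains was 2.14 (adjusted p = 1.45e-05).

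Among the other rises, TMT1, which methylates trans-aconitate, gained 0.69 (adjusted p = 0.0133), ATG1, the kinase that starts autophagy, 0.68 (adjusted p = 0.0203), and HSP26, a small heat shock protein, 0.59 (adjusted p = 0.0349). HSP26 was the only call among 25 heat shock genes (0.75% called higher over all genes), whose median was 0.01. Without control array 2 there were 3 calls higher and 1 lower (430 and 316 of 6269 over all genes). SNO1, of vitamin B6 synthesis, rose by 0.46. The genes that follow were picked after their values were seen. DAK1, a dihydroxyacetone kinase, read 11.99, 11.89 and 11.94 with tangeretin and 11.37, 11.34 and 11.33 in controls, with a small spread in both groups (change 0.59, SE 0.08, adjusted p = 0.00472). POX1, the acyl-CoA oxidase of peroxisomes, CRC1, the mitochondrial carnitine carrier, and YMC1, another mitochondrial carrier, rose by 0.38, 0.57 and 0.59. ZTA1 and FMP23, which rose by 0.56 and 0.43, were the only 2 called genes that lie next to each other in the annotation, on chromosome II and transcribed away from each other.

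**Figure D4:**
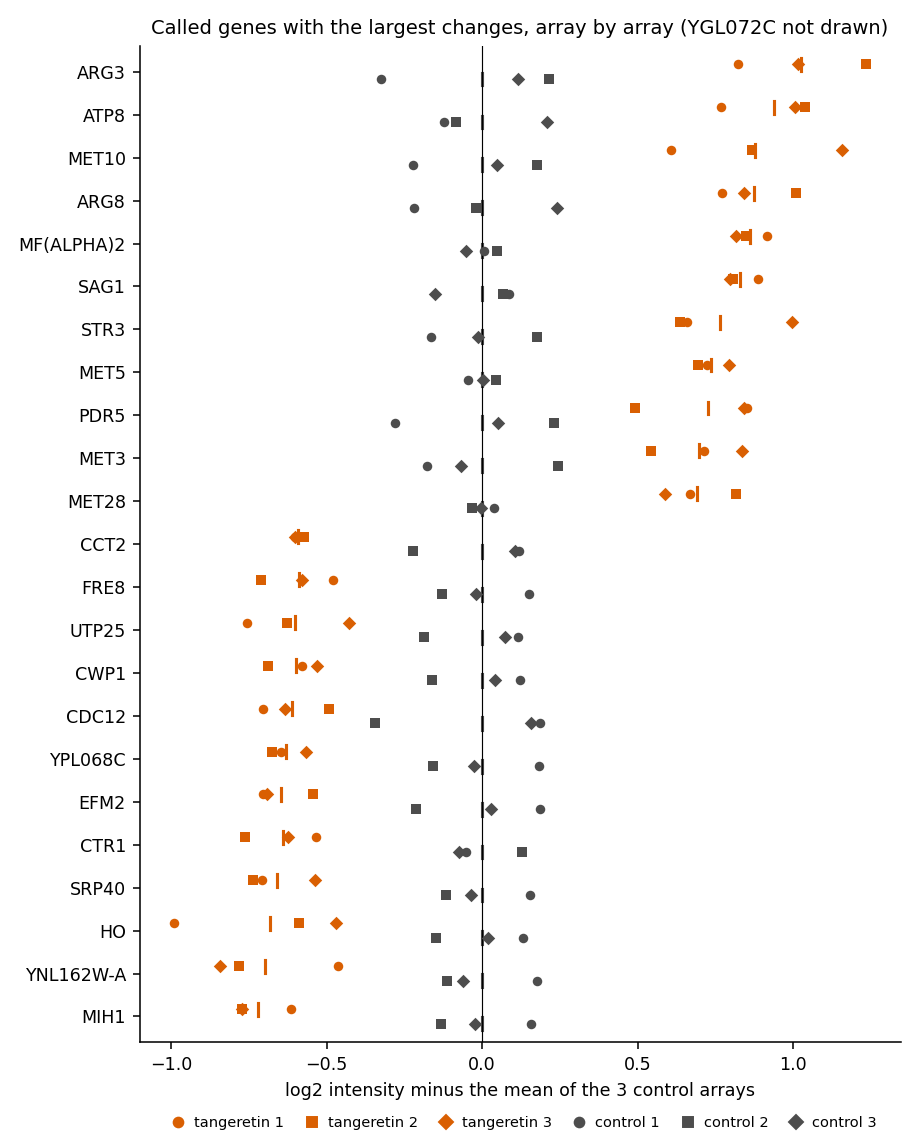
The x axis gives the log2 intensity of each array minus the mean of the 3 control arrays for the 11 called genes that rose most after YGL072C and the 12 that fell most; orange points are tangeretin arrays, grey points control arrays, vertical bars group means (n = 3 arrays each). No gene drawn has overlapping groups, and in the genes that fell control array 2 is the lowest control except in CTR1.

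The called falls were smaller, and a few were in genes of cell division. MIH1, the phosphatase that releases the cell cycle kinase Cdc28 for entry into mitosis, fell most. It read 8.81, 8.65 and 8.65 with tangeretin and 9.58, 9.29 and 9.40 in controls, a 1.65-fold fall (log2 change -0.72, SE 0.09, adjusted p = 0.00294). It was 1 call among 16 genes of mitotic entry and exit (0.702% called lower over all genes), whose median was -0.06. CDC12, a septin of the bud neck, read 9.61, 9.82 and 9.68 with tangeretin and 10.50, 9.97 and 10.47 in controls. Its change was -0.61 (SE 0.13, adjusted p = 0.0392), with control array 2 close to the treated arrays. CDC12 was 1 call among 14 septin and cytokinesis genes (0.702% called lower over all genes), whose median was -0.05. The septin genes CDC3, CDC10, CDC11 and SHS1 were not called. Of 25 genes of the G1 to S transition, 2 were called lower and 0 higher, 10 had tangeretin arrays all below controls, and the median was -0.15. Over all genes 0.702% were called lower and 15.9% had tangeretin arrays all below controls. These 2 were PCL1, a G1 cyclin of the kinase Pho85 (change -0.46, SE 0.09, adjusted p = 0.0249), and CDC21, thymidylate synthase (change -0.48, SE 0.10, adjusted p = 0.0282). The cyclin gene CLN1 and the cohesin gene MCD1 differed by -0.39 and -0.36 and were not called.

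HO fell as well. It read 7.53, 7.93 and 8.05 with tangeretin and 8.65, 8.37 and 8.54 in controls, with no overlap (change -0.69, SE 0.13, adjusted p = 0.0208). The chromosome and the GAL1-HO plasmid both carry HO, and transcripts of the 2 copies were not told apart here. GAL1 itself read 9.43, 9.31 and 9.28 with tangeretin and 9.25, 9.22 and 9.24 in controls, a difference of 0.10 that was not called. TRP1, the plasmid's marker, differed by 0.06.

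By count alone, ribosome assembly gave the most calls of any list among the falls. Of its 41 genes, 4 were called lower (0.702% over all genes) and 0 higher. In 19 the tangeretin arrays were all below controls (15.9% over all genes) and in 2 all above. The median was -0.17, against 0.08 in WT cells. At an unadjusted p under 0.05, 19 were lower and 3 higher. Without control array 2, 9 were called lower and 4 higher (316 and 430 of 6269 over all genes). SRP40, a nucleolar protein, read 12.41, 12.38 and 12.58 with tangeretin and 13.27, 13 and 13.08 in controls (change -0.66, SE 0.10, adjusted p = 0.0071). ENP1 and RRS1, needed for the small and the large subunit, fell by 0.48 and 0.47, and LSG1, a GTPase of late large-subunit assembly, fell by 0.40. Outside the list, UTP25 of the same process changed by -0.60, and NHP2 and KRE33, picked after their values were seen, by -0.55 and -0.44. Of the 119 ribosomal protein genes limma called 0, with 8 higher and 4 lower at an unadjusted p under 0.05, and the median was 0.00. The fit without control array 2 called 9 of these higher and 1 lower, against 430 and 316 of 6269 over all genes. Of 16 subunits and factors of RNA polymerases I and III, limma called 0 and 3 were lower at an unadjusted p under 0.05, with a median of -0.16. Of 42 mitochondrial ribosomal protein genes, MRPL13 alone was called, at -0.34 (0.702% called lower over all genes). In 11 of the 42 the tangeretin arrays were all below controls, against 15.9% of all genes. Leaving out control array 2 gave 8 called lower and 2 higher (316 and 430 of 6269 over all genes).

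Few genes of genome maintenance were called. Among 15 partners of Sgs1 and backup nucleases, limma called 0, 3 were lower at an unadjusted p under 0.05, and the median was -0.12. RMI1, the partner of Sgs1 and Top3, read 10.94, 10.99 and 10.76 with tangeretin and 11.55, 11.05 and 11.24 in controls (difference -0.38, SE 0.12, adjusted p = 0.0998). TOP3 gave 19 to 38 raw units with tangeretin and 12 to 23 in controls, too dim for a reading. The nuclease genes MUS81, SLX4 and YEN1 differed by 0.03, -0.07 and -0.07. Of 19 genes known to be induced by DNA damage, limma called 0, with 2 higher and 2 lower at an unadjusted p under 0.05 and a median of -0.02.

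Among 17 recombination and checkpoint genes 1 was called, RAD24, which loads the checkpoint clamp (0.702% called lower over all genes). Without control array 2, 3 were called lower and 2 higher (316 and 430 of 6269 over all genes). RAD24 read 8.22, 8.03 and 8.2 with tangeretin and 8.94, 8.53 and 8.62 in controls (change -0.55, SE 0.11, adjusted p = 0.0223). A further 4 called genes of genome maintenance were noticed after values were seen. ELG1, which unloads the replication clamp, changed by -0.49, HST3, a histone deacetylase, by -0.49, SLX8, a subunit of a SUMO-targeted ubiquitin ligase known from a screen for genes that sgs1 mutants need, by -0.48, and UNG1, uracil-DNA glycosylase, by -0.43. SLX8 and UNG1 were called in only 2 of the 12 fits that left out an array, and ELG1 and HST3 in 4.

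The other falls were spread over many processes. CWP1, a mannoprotein of the cell wall, fell by 0.60 (SE 0.09, adjusted p = 0.0071). It was 1 call among 18 cell wall genes (0.702% called lower over all genes). In vesicle traffic, BOS1, a SNARE between endoplasmic reticulum and Golgi, fell by 0.56 and VPS53, a tether of endosome-derived vesicles, by 0.51. These were 2 calls among 12 genes with a median of -0.16 (0.702% of all genes were called lower). Without control array 2 there were 4, against 316 of 6269 called lower over all genes. YAP1802, a clathrin adaptor, fell by 0.58. CCT2, a subunit of the chaperonin that folds actin and tubulin, read 11.66, 11.69 and 11.66 with tangeretin and 12.38, 12.04 and 12.37 in controls, so that the treated arrays were within 0.10 of each other (change -0.59, SE 0.10, adjusted p = 0.00844). EFM2, a methyltransferase of translation elongation factor 2, fell by 0.64, and DAT1, a protein that binds runs of A and T, by 0.56. RPN6, of the proteasome lid, fell by 0.48, the only call among 32 proteasome genes (0.702% called lower over all genes). Without control array 2, 2 of the 32 were called higher and 4 lower (430 and 316 of 6269 over all genes). YNL162W-A and YPL068C, whose roles are not described here, fell by 0.70 and 0.63.

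In 30 of 56 lists limma called 0 genes, and the medians of these lists lay between -0.16 and 0.28. Without control array 2, 23 of the 30 had at least 1 call, and in 17 of the other 26 lists the count of calls moved by more than 1.5 times. That fit called 430 higher and 316 lower of all 6269 genes. A call in a list there does not by itself set the list apart from all genes. General stress genes (24), oxidative stress genes (20), histones (9) and sterol synthesis genes (24) had medians of 0.05, 0.04, 0.01 and -0.08. At an unadjusted p under 0.05, 5, 2, 1 and 1 of their members were higher and 3, 0, 1 and 6 lower. The fit without control array 2 called 3, 0, 1 and 1 of them higher and 4, 0, 0 and 3 lower. The median of every nuclear chromosome lay between -0.03 and 0.01.

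Whether the response differed from that of WT cells was tested by the interaction of strain and treatment, which called 94 of 6269 genes (1.5%). Of the 91 genes called in sgs1Δ cells, 31 were among them, 19 that rose and 12 that fell. The 91 were picked by their change in sgs1Δ cells, which is part of the interaction. The share of the 91 that it called is raised by that choice. The WT change had the same sign in 48 of the 91, and 3 were themselves called in WT cells, PDR5, ATP8 and VPS53. ATP8 changed by 0.93 in sgs1Δ cells and by -0.53 in WT cells, and VPS53 by -0.51 in sgs1Δ cells and by 0.47 in WT cells, so both calls were in opposite directions. MF(ALPHA)2 and SAG1 changed by 0.86 and 0.83 in sgs1Δ cells and stood at -0.33 and -0.15 in WT cells, with differences of 1.19 (adjusted p = 0.00135) and 0.98 (adjusted p = 0.0048). In the sulfate list, 3 of 10 genes differed between strains, MET5, MET3 and SUL2, by 0.91, 0.73 and 0.64. ARG3 and ARG8 did not differ past the threshold. The number of genes that differ moved widely with single arrays, between 14 and 362 when 1 of the 12 was left out.

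**Figure D5:**
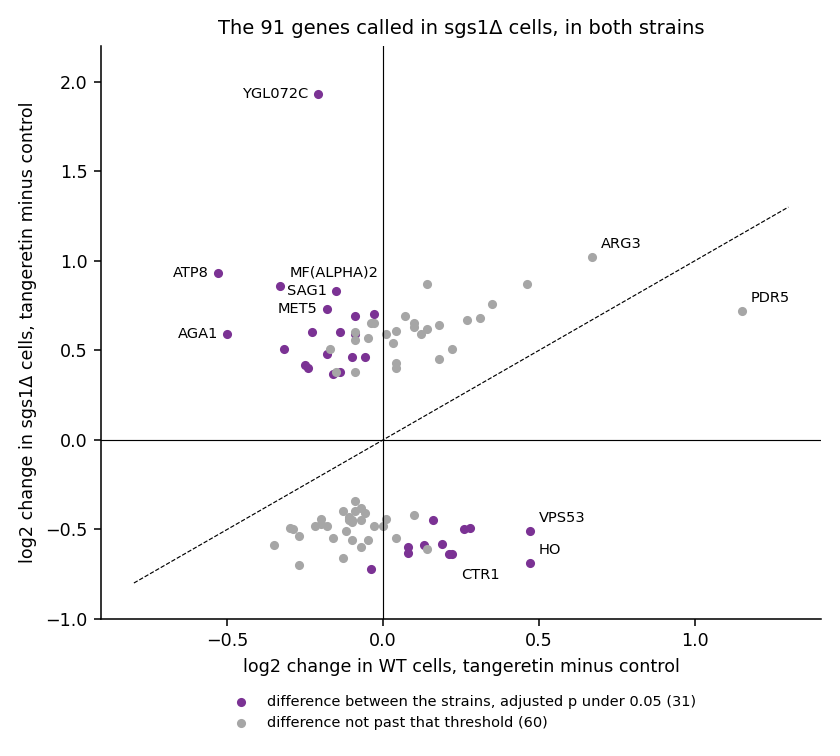
Each point is 1 of the 91 genes called in sgs1Δ cells, with its log2 change (tangeretin minus control) in sgs1Δ cells on the y axis and in WT cells on the x axis; purple points are the 31 genes whose change differed between strains, grey points the other 60, and the dashed line marks equal change. YGL072C, ATP8 and the mating genes lie left of 0, and PDR5 lies far to the right.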

How the data were processed

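Expression was measured on 12 Phalanx OneArray oligonucleotide arrays in 1 colour (Cy5), 3 for each of 4 groups. The labels give hot-phenol extraction and conversion to cDNA. The deposited raw intensity of each spot is, per the file headers, the value of 1 array. Its background had been subtracted already, since the array medians of the 2158 empty spots were 0 to 1. The spots also have a deposited flag of another kind (unit other), of which 0 was read as detected. The authors also deposited a log2 value table, made by a normalization not given in the sources used here. It served as an alternative.

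From the raw intensities, spots of a probe were averaged, values under 0 set to 0, 50 added, control spots left out, and the arrays quantile normalized and put on the log2 scale with limma 3.58.1 in R 4.3.3. Of 6958 probes, 301 detected on fewer than 3 of the 12 arrays were left out. The brightest probe stood for each of 209 genes with several. RefSeq R64 supplied names. All 4 groups entered 1 fit (lmFit, then eBayes, 8 residual degrees of freedom), p-values were adjusted over all 6269 genes by the Benjamini-Hochberg method, and calls were made below 0.05. Precision is limited by 3 arrays per group. The 50 units added shrink the log2 changes of dim probes, such as those of YGL072C, ATP8 and SUL2.

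The comparison and the gene lists were chosen with earlier results of these data known. Genes named are the 15 largest called rises and falls, every called member of a list, in lists without calls the extreme members, and the targeted gene, strain markers and neighbours of YGL072C. Others were picked after their values were seen. Alternatives were other offsets (none, 16), scalings (75th percentile, cyclic loess), the authors' table, filters on dim probes, mean of probes, the 6 sgs1Δ arrays alone, a replicate block, brightness as covariate, trend and robust moderation, array weights, a 2-fold minimum and leaving out each array. A search of promoters for motifs was planned but not run here.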

Additional observations from a re-analysis of the deposited data

Results flagged for a closer look

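The change with tangeretin differed between the strains, at an adjusted p under 0.05 for the interaction, in 23 of the named genes. Many genes were named for their change in sgs1Δ cells, which is part of the interaction. The difference given is the log2 change in sgs1Δ cells minus that in WT cells. It was positive for YGL072C (2.14), ATP8 (1.47), MF(ALPHA)2 (1.19), AGA1 (1.09), SAG1 (0.98) and MET5 (0.91). It was also positive for TMT1 (0.78), MET2 (0.73), MET3 (0.73), FIT2 (0.67), PDR12 (0.67), SUL2 (0.64) and SNO1 (0.51), and for GRE1 (0.67), a stress gene not called in sgs1Δ cells. It was negative for HO (-1.16), VPS53 (-0.98), CTR1 (-0.86), EFM2 (-0.85), YAP1802 (-0.77), CCT2 (-0.73), YPL068C (-0.71), MIH1 (-0.68) and UTP25 (-0.68).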

How the results depend on the processing

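No named gene turned its direction while past the threshold under any alternative. Of the named genes' values in the alternatives that kept all arrays, 1379 kept their side of the threshold, 140 lost it and 36 gained it, and 27 changed sign without a call in either fit. Among the values with 1 array left out, 1199 kept their side, 236 lost it, 25 gained it and 16 changed sign without a call. Against 47 genes called higher, 44 lower and 94 in the interaction, no offset gave 30, 28 and 63, an offset of 16 gave 33, 29 and 70, 75th percentile scaling gave 53, 21 and 55, cyclic loess gave 75, 41 and 86, and the authors' table gave 32, 29 and 44. The 6 sgs1Δ arrays alone gave 23 and 13, brightness as a covariate gave 15, 2 and 206, array weights gave 854, 795 and 1577, and a 2-fold minimum gave 2, 0 and 19. Leaving out 1 array gave 10 to 430 higher, 4 to 316 lower and 14 to 362 in the interaction. The share of calls that were higher was 51.6%, against 71.6% with 75th percentile scaling, 64.7% with cyclic loess and 88.2% with brightness. The median of all genes stayed within 0.1 log2 units in each of these scalings. The fit with a replicate block called 42 higher, 37 lower and 112 in the interaction. Same-numbered tangeretin and control arrays of sgs1Δ cells deviated from their group means with correlations of 0.30, -0.42 and -0.21. Over all same-numbered pairs of the series these ran from -0.42 to 0.51. Whether a number marks a shared culture or day cannot be told from them. The cause of these differences was not tested. Values near the detection floor limit what can be said of SGS1, TOP3, MET17 and URA3, and of dim mitochondrial probes such as AI1 and AI2.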

Other observations

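Some genes outside the gene lists' calls had large mean differences that did not pass the test, and in the first 3 given here the arrays of 1 group disagreed. They were picked after their values were seen. GTA1 read 11.55, 11.64 and 11.52 log2 units with tangeretin and 5.64, 5.75 and 11.59 in controls, so that 2 of 3 control arrays were at background and control array 3 was level with the treated arrays (log2 difference 3.91, SE 1.5, adjusted p = 0.158). ERG26, of sterol synthesis, read 12.40, 12.28 and 12.62 with tangeretin and 7.99, 12.49 and 11.66 in controls, with control array 1 alone low (adjusted p = 0.212). TIM21, of the mitochondrial import machinery, read 6.72, 11.64 and 11.60 with tangeretin and 11.69, 11.63 and 11.84 in controls, with tangeretin array 1 alone low (adjusted p = 0.277). In all, 7 genes had a mean difference of at least 2-fold, and 5 of these were not called.

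HSP78, a mitochondrial chaperone, read 9.97, 10.42 and 10.19 with tangeretin and 8.85, 9.58 and 9.16 in controls, without overlap (log2 difference 1.00, adjusted p = 0.0657). Without control array 2 its difference was 1.19 and its adjusted p 0.0171. SUP45, a translation release factor, and LAC1, a ceramide synthase, likewise had adjusted p of 0.0798 and 0.0623 over all arrays and 0.00998 and 0.00433 without control array 2. In HSP78, SUP45 and LAC1 control array 2 was the highest control, so leaving it out widens each difference. The lower values without it are thus no added support.

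Of 16 features of mitochondrial DNA on the arrays, 10 had all tangeretin arrays above all control arrays (9.28% over all genes). In 0 they lay all below (15.9% over all genes). Several of these probes were dim, such as AI1 at 5.93 to 6.29 and AI2 at 5.96 to 6.18 log2 units. The median log2 difference of the 16 was 0.20. AI5_ALPHA, a reading frame in an intron of COX1, read 7.71, 8.28 and 8.18 with tangeretin and 7.45, 7.44 and 7.96 in controls (difference 0.44, adjusted p = 0.124).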
